A study of Drosophila melanogaster with 36 samples.

Results

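A run of 30 genes on chromosome arm 3L that holds retinin was described across temperature and time of day in heads of Drosophila melanogaster. Members were every gene of the deposited table, 14010 genes in all, whose start lay within this stretch. It runs from CG13066 (3L, start 16266260) to CG4998 (3L, 16332099–16338348) in the coordinates of the table, whose chromosome names are those of the dm3 build. The stretch was chosen because 4 of its genes, CG13043, CG13056, CG13063 and CG13065, had fallen with temperature in these same columns. The temperature differences of these 4 leading members are therefore given as a description, with no test. The other 26 members were chosen by position only.

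The flies were Canton-S, a wild-type strain, which had been entrained to light-dark cycles at 1 of 3 temperatures (18, 25 and 29°C), and their heads were collected at ZT3, ZT7, ZT11, ZT15, ZT19 and ZT23 (Zeitgeber time, hours after lights on). No transgene or mutant allele is named for any group. The study's methods give an entrainment of at least 3 days and move adults from 25°C in its crosses, whereas the labels say only that the flies grew at different temperatures, so the rearing of these flies is uncertain. Their age, their sex and the number of heads pooled are not given in the sources used here. Polyadenylated RNA was read at its 3′ ends (3′ RNA-seq), and the labels describe 36 libraries, 2 for each combination of temperature and time point. The table holds 1 column for each combination, as reads scaled between columns (normalised reads). No time point therefore has a replicate error, so each temperature was measured by its 6 columns. An SD over these columns holds any change with the hour as well as error.

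The insect corneal lens is a cuticle that is secreted by the cells beneath it in the eye. Retinin is one of its abundant proteins, and Crys (drosocrystallin), Cpr66D and Cpr72Ec are others. Cuticle elsewhere on the body is built from chitin and from secreted proteins, many of which carry the chitin-binding Rebers-Riddiford region and the gene prefix Cpr. Small secreted proteins of this kind are often encoded by genes that lie side by side. Nplp3, a precursor of neuropeptide-like peptides, lies in the same stretch, and most of the other genes have no name beyond their CG number.

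The cluster was made of short genes. In the BDGP6 annotation, 29 of the 30 members were protein-coding and 1 was a long non-coding RNA, with 16 on the plus strand and 14 on the minus strand. CG4998, at the right edge, encodes 1185 amino acids, whereas the other 28 proteins had 87 to 282 amino acids. Likeness of the proteins to retinin was not examined, so the cluster is defined here by position. No spans of neighbouring members overlapped, and the gaps between them ran from 151 to 5929 bp, with a median of 899 bp.

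Shared reads would make neighbours copies of a single measurement, so the read profiles were compared first. Among the 18 members with at least 10 reads, 153 pairs were compared and 0 had identical reads in all 18 columns. The most columns in which any pair was identical was 9, columns without reads included. No member with at least 10 reads shared its profile with any other gene of the table (0 members), although 96 genes of the table with at least 100 reads did share one. Members with fewer reads were left out of this comparison. The use of strand in counting is not stated, and reads that run past the end of a neighbour were not tested for. Among neighbours whose ends face each other, the closest case is Nplp3, on the plus strand, which ends 255 bp from the end of CG13041 on the minus strand. On the same strand the smallest gap was 151 bp, between CG33060 and retinin, and retinin ends 520 bp before CG13056.

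The columns held between 736538 and 2750250 reads on genes, and the shallowest were 18°C ZT23 and 18°C ZT19, with 784440 reads in ZT19. The stretch took between 0.984% and 2.33% of the reads of a column, 532507 reads in all. Retinin made up 63.3% of these and Nplp3 32.5%, which left 22137 reads for the other 28 members. Markers of photoreceptors were abundant at every temperature (all 13 found). Signal from other tissues stood out in single columns. The summed level of 15 midgut genes was 8338 normalised reads at 25°C ZT7 and 2237 at 29°C ZT19, against 45.7 or less in the other columns. The 12 testis genes summed to 197 at 29°C ZT19 and to 10.8 or less in the other columns.

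Of the 30 members, 4 had no read in any column (CG13048, CG13045, lncRNA:CR32160 and CG4998), and 11 others had at most 15 reads over all columns. The remaining 15 passed a filter on low reads that 1 column could satisfy. All 15 reached the minimum in a column at 18°C. Of these, 8 also did so at both other temperatures, 4 at 25°C, 1 at 29°C and 2 at neither. Counts over these 15 are therefore weighted towards genes that are high at 18°C, and they are given as an account of the members. The expressed members stood on both strands, 8 on plus and 7 on minus, and silent genes lay between them.

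The leading members had their highest means at 18°C and their lowest at 29°C. In whole heads, fewer cells of a type and less RNA per cell cannot be told apart. CG13043 (16298322–16298966, 148 amino acids) was the most abundant of them. From ZT3 to ZT23 it had 961, 2794, 1792, 905, 2377 and 1069 normalised reads in 18°C heads, 834, 338, 639, 527, 175 and 252 in 25°C heads and 321, 29.4, 10.6, 118, 62.7 and 105 in 29°C heads. Every value at 18°C lay above every value at 25°C, and the groups at 29°C and 25°C overlapped through the high ZT3 column at 29°C. The means were 1650 ± 803 in 18°C heads, 461 ± 251 in 25°C heads and 108 ± 112 in 29°C heads (SD over 6 time points). CG13056 (16326418–16326886), which lies 520 bp beyond retinin on the same strand, had 95.9, 166, 118, 38, 175 and 89.8 normalised reads in 18°C heads, 50, 18.6, 34.1, 33.9, 19 and 21.1 in 25°C heads and 13.2, 0, 0, 8.98, 6.2 and 6.99 in 29°C heads. All 6 values at 29°C lay below those at 25°C, while at 18°C the ZT15 column fell within the range at 25°C.

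CG13063 (16299747–16300198) had the largest ratio of 18°C to 29°C among the leading members, with means of 109.5 ± 66.6 normalised reads in 18°C heads, 12.03 ± 8.10 in 25°C heads and 0.905 ± 1.25 in 29°C heads. Its columns held 33.2, 211, 151, 83.8, 128 and 50.7 in 18°C heads, 23.9, 15.3, 16.6, 9.5, 5.07 and 1.92 in 25°C heads and 0, 0, 0, 1.63, 3.1 and 0.699 in 29°C heads. Values at 18°C and 25°C did not overlap, and only 7 reads in all were counted at 29°C, so the level there is poorly measured. CG13065 (16270533–16271283) had 246, 159, 194, 13.6, 168 and 78.3 normalised reads in 18°C heads, 20.5, 17.8, 13.8, 25.1, 3.8 and 1.92 in 25°C heads and 13.2, 0, 0, 4.08, 2.32 and 3.5 in 29°C heads. Its ZT15 column at 18°C was as low as the columns at 25°C, and the other columns at 18°C were well above them. Fitted log2 differences of CG13043, CG13056, CG13063 and CG13065 between 18°C and 25°C were 1.89, 1.85, 3.14 and 3.23, and those of 29°C minus 25°C were -2.58, -2.67, -2.69 and -1.83. The fit averaged log2(normalised reads + 1), so its differences are not the log2 ratios of the means above.

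**Figure D1:**
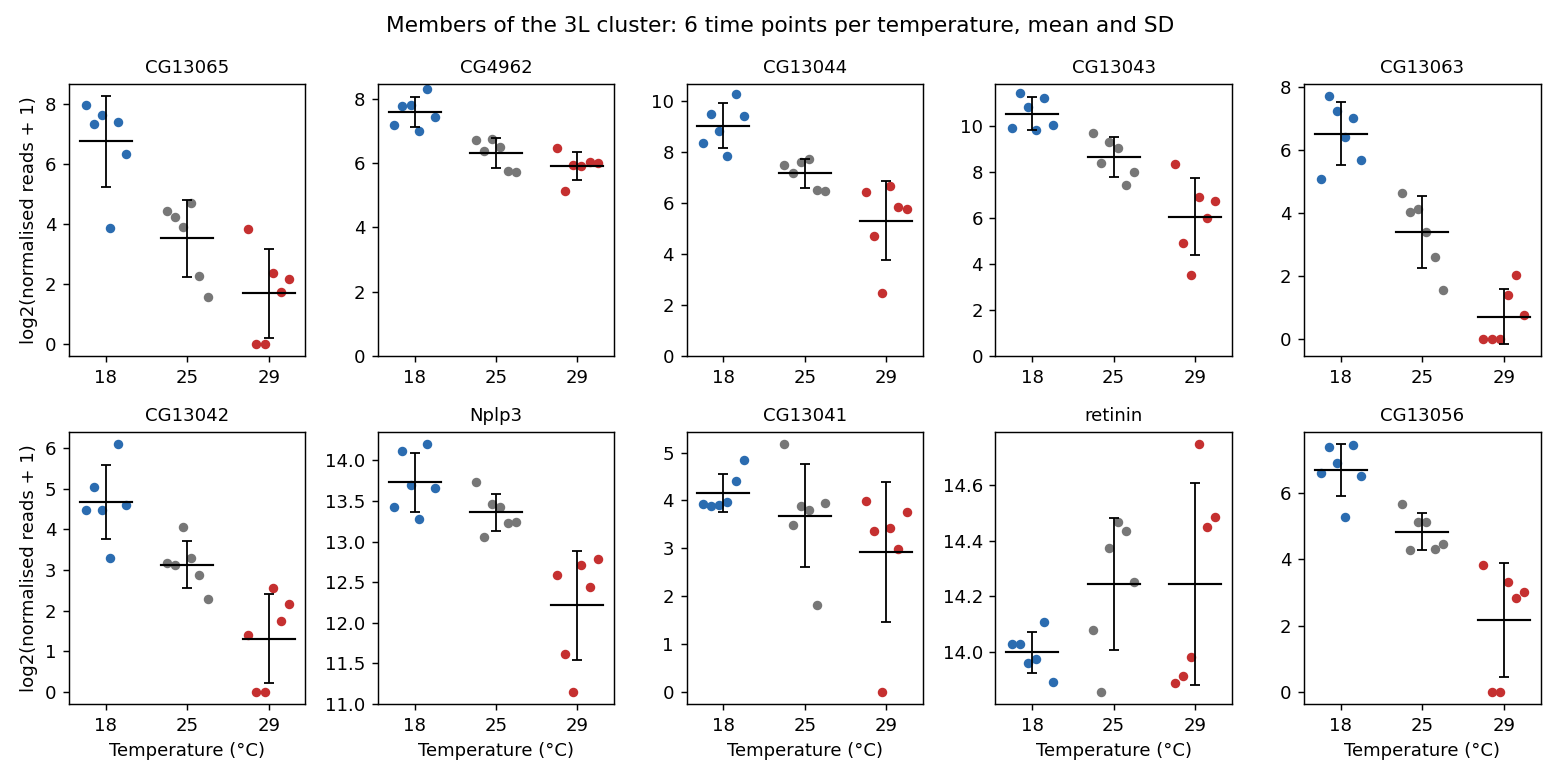
Level of the 10 members with a mean of at least 10 normalised reads, as log2(normalised reads + 1), at 18, 25 and 29°C. Points are the 6 time points of a temperature (ZT3 to ZT23 from left to right), lines are means and bars are SD. The vertical axes differ between panels, and those of Nplp3 and retinin do not start at 0. CG13043 is highest at 18°C, where its mean is 1650 normalised reads, and retinin spans the smallest range.

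The question for the other members was whether they moved with the leading ones. A linear model (limma) was run on 8791 genes, and 13.4% of them passed a Benjamini-Hochberg threshold of 0.05 for 18°C against 25°C, 8.07% higher and 5.32% lower at 18°C. Among the 11 other members tested, 4 were higher at 18°C and 0 lower. At an unadjusted limma p under 0.05 there were 7 of the 11, with retinin among them as lower at 18°C, beside 2322 of the 8791 genes. CG13060, 1 of the 4, passed the filter only through its columns at 18°C, so its call is conditioned on being high there. The count was 3 with edgeR or DESeq2 on the recovered reads, and it was 2 without any 1 of the columns 18°C ZT7, 18°C ZT11, 18°C ZT23, 25°C ZT7 and 25°C ZT23. It was also 2 without both 29°C ZT19 and 25°C ZT7, and 1 without both shallow columns, an alternative added after the data were seen. CG4962 was the call left in that fit.

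Between 29°C and 25°C, 17.3% of all genes differed, 10.6% higher and 6.69% lower at 29°C. Of the 11 other members, 3 were lower and 1 was higher at 29°C. CG13042, among the 3, reached the read minimum in no column at 29°C, and CG13059, the 1 that was higher, in no column at 25°C. Their calls are therefore conditioned in part on the filter. Between 18°C and 29°C, 27.9% of all genes differed, 13.3% higher and 14.7% lower at 18°C. Here 7 of the 11 were higher and 1 was lower at 18°C. Of the 7, CG13062 passed the filter only through 18°C columns. CG13042, CG13046 and CG13038 reached the minimum at 18°C and 25°C but in no column at 29°C. CG13059, the 1 that was lower, reached it in 5 columns at 29°C and 1 at 18°C. For 18°C against 29°C the calls of these members are therefore conditioned in part on the filter. The median log2 difference of the 11 was 1.28, -0.68 and 1.67 in the 3 comparisons, beside -0.01, 0.04 and -0.06 over all genes tested. Since the comparisons share columns, they are not independent of each other. Scaling by library size alone moved the median of all genes to -0.13, -0.13 and -0.01 and made 450 of 1308 calls higher in the 18°C against 25°C comparison, beside 709 of 1177 with the deposited scaling. For 29°C against 25°C, 492 of 1587 calls were then higher, beside 929 of 1517. Under that scaling the counts over the 11 members were again 4, 4 and 8, but for 18°C against 25°C only 3 calls were shared: CG13042 was lost (limma adjusted p = 0.0588) and retinin was called lower at 18°C. Without 29°C ZT19 and 25°C ZT7 the counts for 29°C against 25°C and 18°C against 29°C were 3 and 8, with CG13062 lost and CG13041 gained among the 8.

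CG13044 (16295591–16296260) lies beside CG13043 on the same strand. It had 321, 711, 443, 225, 1234 and 673 normalised reads at 18°C from ZT3 to ZT23, 179.5, 142, 193, 208, 88.7 and 87.2 at 25°C and 84.0, 24.8, 4.54, 99.6, 55.8 and 52.4 at 29°C. All columns at 18°C were above those at 25°C, whereas the ranges at 29°C and 25°C met at the ZT15 column of 29°C. It differed by 1.86 between 18°C and 25°C (log2, SE 0.45, limma adjusted p = 0.00662) and by -1.85 between 29°C and 25°C (limma adjusted p = 0.00498). Without both shallow columns at 18°C the 18°C minus 25°C value had a limma adjusted p of 0.0867, and over all alternatives it ran from 0.0003847 to 0.0867.

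CG4962 (16287809–16288640) had 146, 217, 221, 128, 316 and 173 normalised reads in 18°C heads, 105, 82.2, 107, 90.3, 53.2 and 51.8 in 25°C heads and 87.3, 34.1, 60.5, 58.8, 64.3 and 63.6 in 29°C heads. The values at 18°C stood above all others, and those at 29°C and 25°C overlapped. It was higher in 18°C than in 25°C heads by 1.28 (log2, SE 0.22, limma adjusted p = 0.000231) and the difference of 29°C minus 25°C was -0.39 (limma adjusted p = 0.240). This was the call between 18°C and 25°C that every alternative kept, with limma, edgeR or DESeq2 adjusted p-values up to 0.005661.

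CG13042 (16301098–16301515), the neighbour of CG13063, had 21.3, 32, 21.4, 8.77, 67.3 and 23 normalised reads in 18°C heads, 7.95, 7.63, 15.7, 8.82, 6.33 and 3.83 in 25°C heads and 1.65, 0, 0, 4.9, 2.32 and 3.5 in 29°C heads. The ZT15 column at 18°C lay within the range at 25°C, and at 29°C 4 columns held 3 reads or fewer. Its difference of 18°C minus 25°C was 1.53 (log2, SE 0.51, limma adjusted p = 0.0449) and was lost when any 1 column at 18°C or 25°C was left out except 18°C ZT15 and 25°C ZT11. Over all alternatives its adjusted p-values, from limma, edgeR or DESeq2, ran from 0.0113 to 0.2344. Its difference of 29°C minus 25°C was -1.82 (limma adjusted p = 0.0131), which became 0.0644 without the 25°C ZT11 column and 0.0520 without the 29°C ZT11 column in the same limma fit.

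Nplp3 (16311125–16311796, 90 amino acids) was lower at 29°C. It had 11041, 17709, 13276, 9899, 18816 and 12944 normalised reads in 18°C heads, 13557, 8501, 11283, 11007, 9625 and 9712 in 25°C heads and 6182, 3143, 2272, 6705, 5552 and 7035 in 29°C heads. Every column at 29°C was below every column at 25°C and at 18°C, while the columns at 18°C and 25°C overlapped. No overlap of this direction between 29°C and 25°C was seen for 2.87% of all genes, and among the 11 other members it held for 1, Nplp3. The difference of 29°C minus 25°C was -1.14 (log2, SE 0.20, limma adjusted p = 0.000208), and that of 18°C minus 25°C was 0.37 (limma adjusted p = 0.241).

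CG13041 (16312052–16312620), the gene that ends beside Nplp3, was called in no comparison. Its columns held 14.2, 13.8, 13.9, 14.6, 20.2 and 27.6 normalised reads in 18°C heads, 35.2, 10.2, 13.8, 12.9, 2.53 and 14.4 in 25°C heads and 14.8, 9.3, 0, 9.8, 6.97 and 12.6 in 29°C heads. All temperatures overlapped. The difference of 18°C minus 29°C was 1.23 (log2, limma adjusted p = 0.0579). It passed in 6 alternatives, among them the fit on only the 12 columns compared (limma adjusted p = 0.0442) and the fit without 18°C ZT3 (0.0245).

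Retinin (16325019–16325897, 191 amino acids), the most abundant member, did not pass in any comparison of temperatures. Its 6 columns held 16700.1, 16703, 15938, 16072, 17619.5 and 15195 normalised reads in 18°C heads, 17274, 14814, 21239.6, 22651, 22142 and 19499.7 in 25°C heads and 15136, 15425, 16181, 27524, 22367 and 22938 in 29°C heads. The temperatures overlapped, and the values at 18°C were the most even. The difference of 18°C minus 25°C was -0.25 (log2, SE 0.11, limma adjusted p = 0.150), that of 29°C minus 25°C was 0.00 (limma adjusted p = 0.997) and that of 18°C minus 29°C was -0.25 (limma adjusted p = 0.0999). The difference of 18°C minus 25°C depended on scaling and was -0.38 with library size alone (limma adjusted p = 0.01035). Without the 18°C ZT7 column the difference of 18°C minus 29°C was -0.32 (limma adjusted p = 0.0369). Without 18°C ZT3 it had an adjusted p of 0.0489 and without 29°C ZT11 one of 0.0454 in limma.

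CG13059 (16316831–16317363) was the member that ran the other way. It is named, with the 4 genes after it, although its mean was under 10 normalised reads, a choice made after the values were seen. It had 0, 2.18, 12.1, 0, 2.24 and 0 normalised reads in 18°C heads, 0, 1.7, 5.53, 9.5, 0 and 0.959 in 25°C heads and 34.6, 20.1, 16.6, 7.35, 14.7 and 12.6 in 29°C heads. At each time point except ZT15 the value at 29°C was above that at 25°C, on 91 reads at 29°C and 23 at 25°C. It was higher in 29°C than in 25°C heads by 2.67 (log2, SE 0.62, limma adjusted p = 0.00335) and lower in 18°C than in 29°C heads by -2.90 (limma adjusted p = 0.000912). It reached the read minimum in 5 columns at 29°C, 1 at 18°C and 0 at 25°C. Both calls are therefore conditioned in part on being high at 29°C.

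The remaining members with a test were low. CG13060 and CG13062 reached the read minimum only at 18°C, so that their p-values for 18°C cannot be read as tests of a member chosen by position alone. CG13046 and CG13038 reached it at 18°C and 25°C but in no column at 29°C, which limits their p-values for 18°C against 29°C. CG13060 averaged 10.5 ± 4.04 normalised reads in 18°C heads, 3.32 ± 3.43 in 25°C heads and 3.77 ± 2.86 in 29°C heads. Its difference of 18°C minus 25°C was 1.72 (log2, limma adjusted p = 0.0295), which was lost under edgeR (adjusted p = 0.0836) and in limma without 18°C ZT7, ZT11 or ZT23 or without 25°C ZT7, ZT11 or ZT23, with adjusted p-values up to 0.1153. It was not called for 18°C against 29°C (limma adjusted p = 0.0591) but passed in 8 alternatives, with adjusted p-values from 0.0267 in limma. CG13046 averaged 12.7 ± 6.66, 4.27 ± 3.68 and 2.29 ± 2.34 at 18, 25 and 29°C, CG13062 10.1 ± 5.49, 2.04 ± 1.70 and 1.82 ± 2.19, and CG13038 11.2 ± 6.90, 5.56 ± 3.23 and 1.91 ± 1.72 (SD over 6 time points). Each was called between 18°C and 29°C, by 2.28, 1.92 and 2.15 on the log2 scale (limma adjusted p = 0.00482, 0.0233 and 0.00566), and in neither comparison with 25°C. For 18°C against 25°C, CG13046 passed in 5 alternatives, with 0.0469 on only the 12 columns compared, and CG13062 in 2, with 0.0109 without 18°C ZT3 (adjusted p-values of limma). The call of CG13062 was lost without 18°C ZT7, ZT11 or ZT19 or without 29°C ZT7 or ZT11, with limma adjusted p-values up to 0.0918. It was also lost with a pseudocount of 0.1 (limma adjusted p = 0.1079) and without the ZT19 columns (0.0768). The same held without 29°C ZT19 and 25°C ZT7 (0.0526) and without both 18°C ZT19 and 18°C ZT23 (0.1715).

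**Figure D2:**
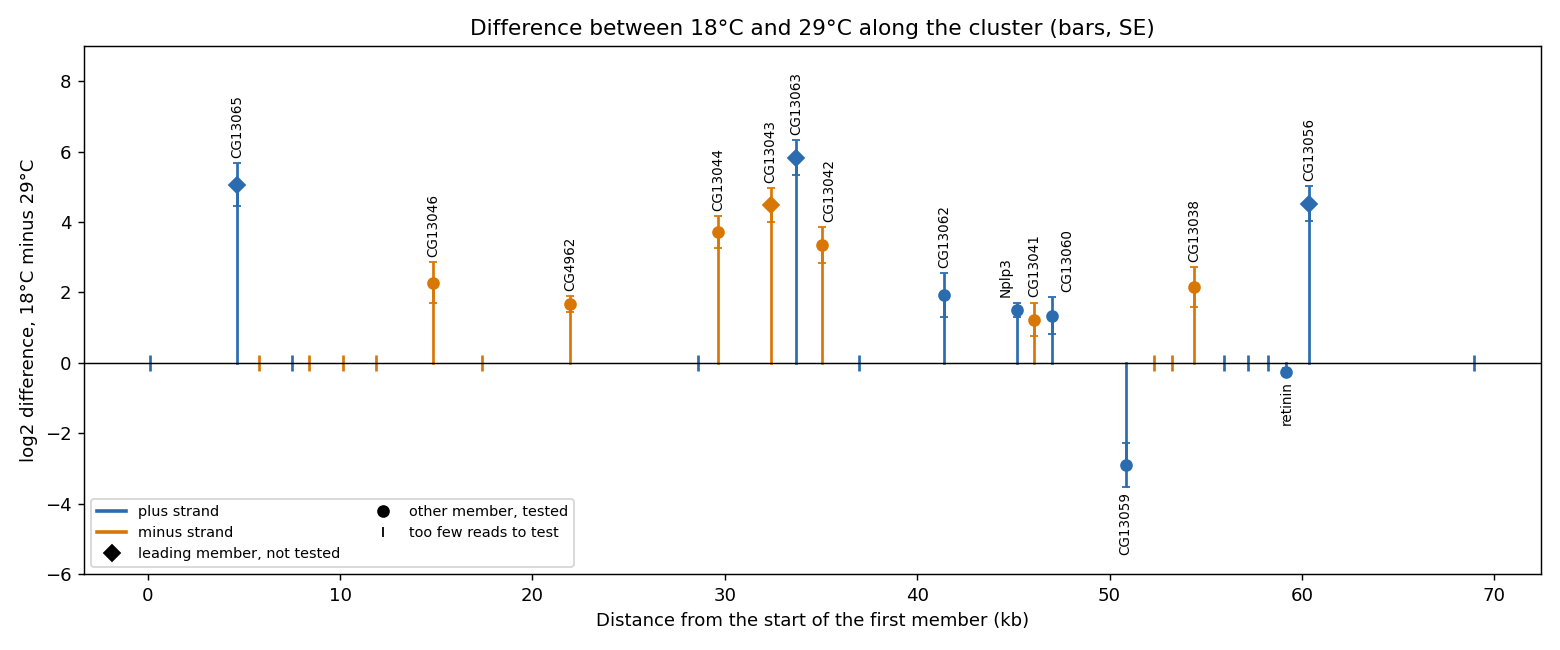
Fitted log2 difference between 18°C and 29°C (vertical axis, positive where 18°C is higher) against the distance of each member's midpoint from the start of CG13066 in kb. Colours give the strand, diamonds the leading members, circles the other members tested, ticks members with too few reads, and bars the SE of the fit. CG13063 has the largest difference, 5.83, retinin lies at -0.25 and CG13059 at -2.90.

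Along the chromosome, the members that were higher at 18°C than at 29°C lay on both strands, and retinin and CG13059 stood among them. Without overlap between the 6 columns of each temperature, 5 of the 11 other members tested were higher at 18°C than at 29°C, where 5.82% of all genes were. These were CG4962, CG13044, CG13042, Nplp3 and CG13038, of which CG13042 and CG13038 reached the read minimum in no column at 29°C. Between 18°C and 25°C the absence of overlap held for 2 of the 11, CG4962 and CG13044, and for 4.12% of all genes. The leading members, which were chosen on these columns, did not overlap between 18°C and 29°C either, and CG13043 and CG13063 not between 18°C and 25°C. The genes next to the edges were described as well, with no test. CG13067 (16264409–16265019), which starts just left of the stretch, averaged 147 ± 50.0 normalised reads in 18°C heads, 71.6 ± 20.2 in 25°C heads and 56.6 ± 10.6 in 29°C heads. The first member inside, CG13066, had 3 reads in all. On the right, both CG4998 inside and CG33257 outside had 0 reads.

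Time of day was not used to choose the stretch and was tested for all 15 members that passed the filter. Between light (ZT3, ZT7 and ZT11) and dark (ZT15, ZT19 and ZT23), 0.375% of all genes differed and 0 of the 15 members did. A shared rhythm with a period of 24 h was called for 0.466% of all genes and for 0 of the 15. At an unadjusted p under 0.05, 1 member stood in each test with limma, and it was retinin. Of the 8791 genes, 786 did so for light minus dark and 748 for the shared rhythm, so the count of members was no more than the share over all genes. Under edgeR and DESeq2 the counts of members called were 0 in both tests as well. In simulated reads, the limma test recovered 90% of 200 genes with a 4-fold rhythm, and 74% of 200 genes with a 2-fold change between light and dark, among 8791 genes. The simulation gave every gene the same dispersion (spread relative to its mean). Several members varied more, such as CG13043 with 108 ± 112 normalised reads at 29°C. The SE of light minus dark was 0.39 for CG13043 and 0.37 for CG13044, so these rates do not carry over to such members.

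The difference in retinin between time points was small and was largest at 29°C. There the 3 dark columns held 22367 to 27524 normalised reads and the 3 light columns 15136 to 16181, without overlap. The 3 light columns at 29°C were also the shallower ones, with 978888 to 1245792 reads on genes, against 2341140 to 2750250 in the dark columns. Time of day and depth therefore cannot be told apart at 29°C. The share of all genes that separated in this way was not counted. At 18°C its columns differed by no more than 1.16-fold, against 1.53-fold at 25°C and 1.82-fold at 29°C. The difference of light minus dark over all temperatures was -0.30 (log2, SE 0.09, limma adjusted p = 0.236). The fitted rhythm peaked at ZT17.6 (limma adjusted p = 0.227). Whether it differed between temperatures was not tested.

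**Figure D3:**
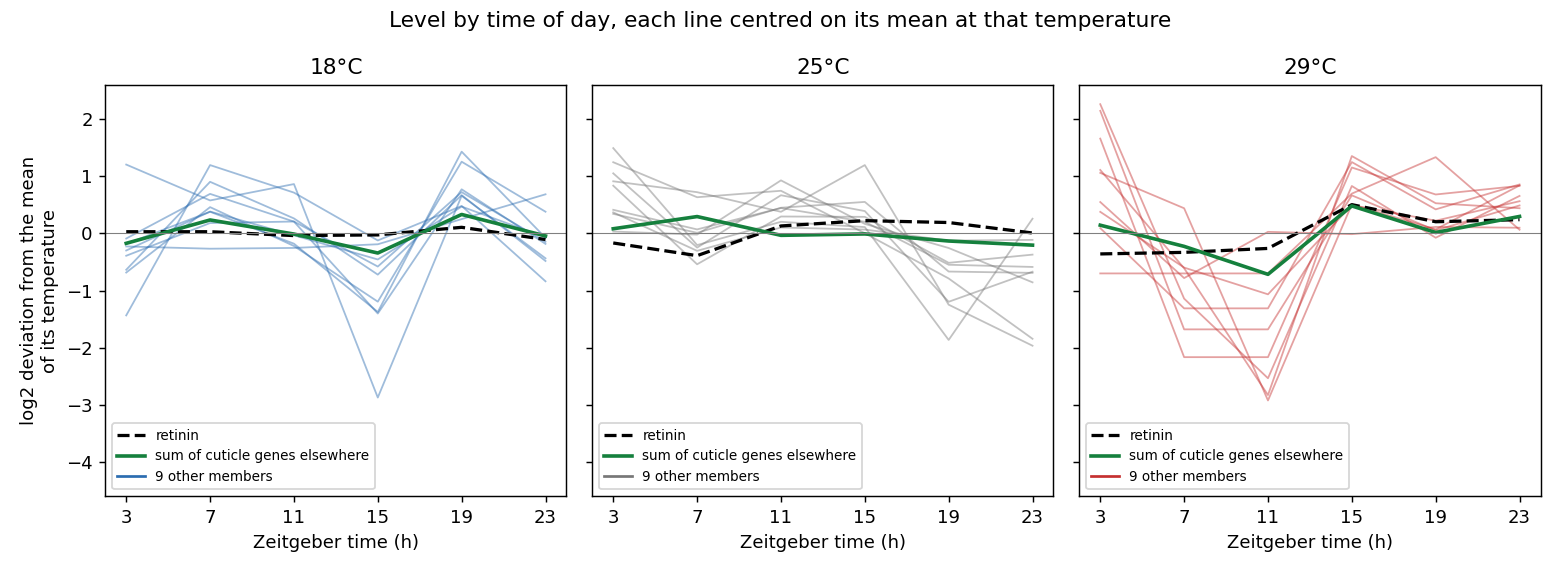
Log2 deviation of each column from the mean of its temperature (vertical axis) against Zeitgeber time in h, in a panel for each temperature. Thin lines are the 9 members other than retinin with a mean of at least 10 normalised reads, the dashed line is retinin, and the thick green line is the summed level of 122 cuticle genes outside the stretch. At 18°C most thin lines dip at ZT15, where the cuticle sum is 4816 normalised reads, and at 29°C most are low at ZT11, where it is 1753.

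Within a temperature the columns differed for most members at the same time points, and these time points were not the same at each temperature. Among the 9 members other than retinin that averaged at least 10 normalised reads, 7 were lowest at ZT15 at 18°C and 5 were highest at ZT19. At 25°C, 5 were highest at ZT3 and 5 were lowest at ZT23. At 29°C, 5 were highest at ZT3, and ZT11 was the lowest column of CG13044, CG13043, Nplp3 and CG13041. The 122 cuticle genes outside the stretch had their lowest sum in the same columns at 18°C (4816 normalised reads at ZT15), 25°C (3728 at ZT23) and 29°C (1753 at ZT11). Their highest sum at 18°C was also at ZT19 (7687), but at 25°C it was at ZT7 (5273) and at 29°C at ZT15 (4020). With 1 column for each combination, a change over the day and a difference between collections cannot be told apart.

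Members also varied together across columns. After the mean of each temperature was taken out, the correlation over the 18 columns between pairs of these 9 members had a median of 0.69 and ran from 0.23 to 0.94. The highest was between Nplp3 and CG13056, which are not neighbours, and CG13043 and CG13056 had 0.90. Retinin had a median of 0.23 with the 9, from 0.05 to 0.59. The points share their columns, and with them depth and scaling, so these values are a description.

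Genes outside the stretch were ranked by their likeness to the leading members. The 5 genes outside the stretch most like the median log2 profile of the leading members, by Pearson correlation over 18 columns, were l(2)34Fc (0.97), Crys (0.97), serp (0.94), Cpr100A (0.94) and CG11350 (0.93). Crys encodes the corneal lens protein drosocrystallin, serp a chitin deacetylase, and Cpr100A a cuticle protein. The means of Crys were 217 normalised reads in 18°C heads, 75.6 in 25°C heads and 26.8 in 29°C heads, and those of serp were 373, 192 and 127.

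The corneal lens genes moved in different directions. Of the 4, Crys was higher in 18°C than in 25°C heads by 1.55 (log2, limma adjusted p = 0.00218) and lower in 29°C than in 25°C heads by -1.57 (limma adjusted p = 0.0013). Cpr72Ec ran the other way, with means of 235 ± 78.9 normalised reads in 18°C heads, 455 ± 218 in 25°C heads and 1293 ± 613 in 29°C heads. It was lower in 18°C than in 25°C heads by -0.86 (limma adjusted p = 0.000334) and higher in 29°C than in 25°C heads by 1.49 (limma adjusted p = 2.76e-07). It was also the lens gene called for time of day, at 0.90 for light minus dark (limma adjusted p = 0.000656) and with a shared rhythm (limma adjusted p = 5.22e-05). Cpr66D averaged 16.9 ± 28.4 normalised reads at 18°C and 4.16 ± 3.21 at 29°C and passed in no comparison, like retinin.

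**Figure D4:**
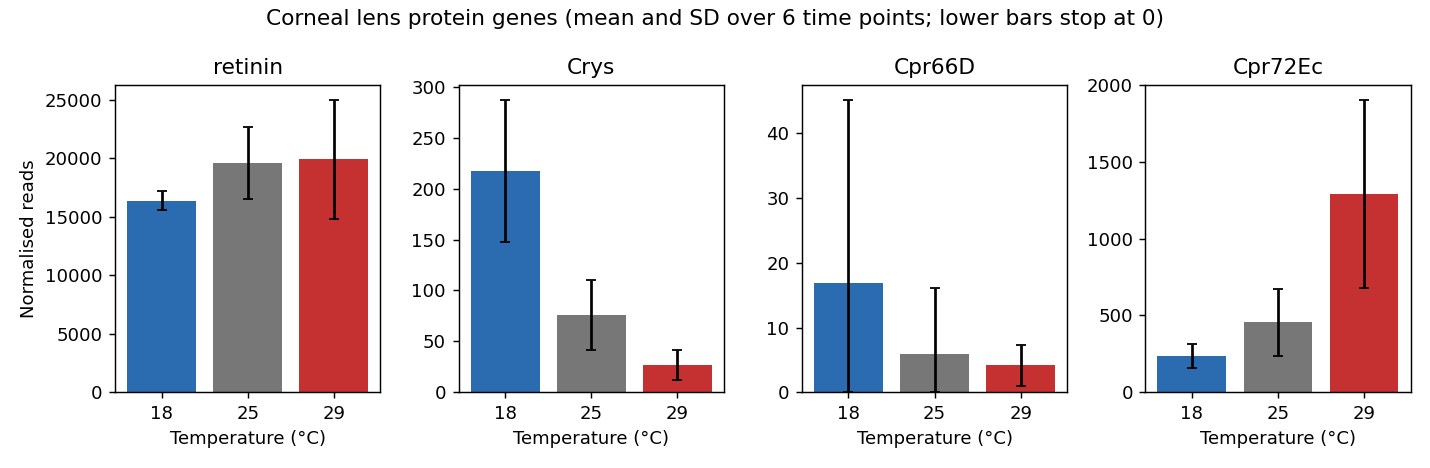
Mean normalised reads (vertical axis, linear, a scale for each gene) of the 4 corneal lens genes at 18, 25 and 29°C. Bars are means over 6 time points and whiskers are SD, cut at 0 below. Crys is at 217 normalised reads at 18°C and 26.8 at 29°C, Cpr72Ec is at 235 at 18°C and 1293 at 29°C, and retinin overlaps between temperatures.

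Other cuticle genes, taken by symbol, were compared as the wider group. Of 122 found, 34 had no reads and 44 passed the filter. Of the 44, 8 were higher and 1 was lower for 18°C against 25°C, and 2 were higher and 9 lower at 29°C than at 25°C. Between 18°C and 29°C, 26 were higher and 1 was lower at 18°C. Of all genes, the shares higher and lower were 8.07% and 5.32%, 10.6% and 6.69%, and 13.3% and 14.7% in these 3 comparisons. The filter could be satisfied by 1 column, so the counts include genes with few reads outside 18°C. Cpr11A, among the 26, averaged 6.15 normalised reads at 18°C and 0 at 29°C. The median log2 differences of the 44 were 0.56, -0.47 and 1.16, beside -0.01, 0.04 and -0.06 over all genes. Cpr100A was higher in 18°C than in 29°C heads by 2.51 (limma adjusted p = 3.81e-07) and Cpr49Ae by 2.10 (limma adjusted p = 6.37e-08), whereas TwdlE, of the Tweedle family of cuticle proteins, was lower at 18°C by -1.44 (limma adjusted p = 3.77e-06).

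Markers of other cells moved with temperature too. The 6 larval fat body and storage protein genes summed to 5971 to 13546 normalised reads at 18°C, 659 to 5688 at 25°C and 2544 to 9369 at 29°C, and 5 of them were called higher in the 18°C against 25°C comparison. Most of this sum was Lsp2, a larval serum protein gene. The 4 glial genes summed to 1414 to 1886 at 18°C, 1332 to 1681 at 25°C and 670.1 to 871 at 29°C. The 8 neuronal genes summed to 531 to 661 at 18°C, 583 to 762 at 25°C and 425 to 621 at 29°C. The 7 flight muscle genes summed to 2941 to 3883 at 18°C, 2795 to 6836 at 25°C and 1634 to 2867 at 29°C. The values of 6836 and 2867 were those of 25°C ZT7 and 29°C ZT19, the columns with the midgut signal. The other columns held 2795 to 3134.5 at 25°C and 1634 to 2430.6 at 29°C. The 13 photoreceptor genes did not move as a set. Their sums were 30000.3 to 36057 at 18°C, 35889 to 47421 at 25°C and 39793 to 51152 at 29°C, and only those at 18°C and 29°C did not overlap. For 18°C against 29°C 6 of them were called lower and 2 higher, and at 29°C against 25°C 3 were higher and 1 lower. From 25°C to 29°C the mean of Arr2 went from 11827 to 17017 and that of ninaE from 18184 to 15314. The part of these shifts in the results above was not tested.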

How the data were processed

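The submitters' processing notes list Bowtie2, TopHat, Cufflinks and the dm3 build, with no versions or roles. As deposited by the authors, the table holds scaled signal for 21081 transcripts in 18 columns, 1 for each temperature and time point. How 2 labelled libraries became 1 column, and how reads were counted (tool, strand, molecular identifiers), are not given in the sources used here. The columns name ZT19 where the labels give zt18, and were taken as the same group. Divided by a step particular to its column, 100% of the values were whole (tolerance 0.01 reads), and these whole reads served the count-based alternatives.

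For each gene the transcript with the most reads was kept, which gave 14010 genes, 13635 of them with a symbol. All 30 members were found by symbol in the Ensembl release 115 annotation of BDGP6, which was used for strand, biotype and coding length only. The low-read filter (filterByExpr in edgeR 4.0.16) left 8791 genes. The test had been planned for either unit. Since the table holds scaled signal, log2(value + 1) was modelled on temperature plus time point over all 18 columns (R 4.3.3, limma 3.58.1, moderated by eBayes along a mean trend). Light minus dark was a contrast of the same kind, and the shared rhythm an F-test of 1 cosine and 1 sine of 24 h beside temperature. P-values were adjusted by Benjamini-Hochberg over all genes, with a threshold of 0.05. The p-values measure spread between columns of pooled or summed libraries, which may be technical.

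Members, gene lists and tests were chosen with earlier results of these data known. All members were accounted for, and values in every column were given for the 4 leading members, for retinin and for others with a mean of at least 10 normalised reads. Alternatives covered the pseudocount, filters, scaling (TMM, library size), edgeR and DESeq2 1.42.0 on recovered reads, the columns in the fit and the sum of transcripts. In simulated reads for 8791 genes with 200 changed 4-fold at 18°C, limma recovered 94% and called 8 unchanged genes.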

Additional observations from a re-analysis of the deposited data

Results flagged for a closer look

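Each of the 15 members tested was checked at each temperature for a column far from the other 5, which made 45 checks. In 5 of them a column stood apart. For normally distributed values chance gives about 1 in 20, or 2.25. Many of these values are low reads with zeros, and the checks share columns. That rate may therefore not hold, and whether 5 beside 2.25 is an excess was not tested. Each of the 5 was a high value. At 29°C ZT3, CG13043 had 321.2 normalised reads, with the next highest column at 118.4, and CG13065 had 13.18, with the next highest at 4.083. CG13041 had 35.22 normalised reads at 25°C ZT3, where the next highest column held 14.38. CG13060 had 9.3 at 29°C ZT7 and CG13059 had 12.08 at 18°C ZT11, both on few reads.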

How the results depend on the processing

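No paired analysis was possible because the deposited columns carry no replicate number. With the columns left out in turn, the count of members called for 18°C minus 25°C ran from 2 to 5, beside 4 with all columns. It was 2 with no low-read filter (22 members tested), 2 with a mean of at least 10 normalised reads (6 tested), 2 without 29°C ZT19 and 25°C ZT7, and 1 without 18°C ZT19 and 18°C ZT23. For 18°C minus 29°C the count of 8 became 4 with a mean of at least 10 normalised reads, under which only 6 members were tested. The counts for 29°C minus 25°C stayed between 3 and 4, and those for light minus dark, the shared rhythm and identical read profiles were 0 under the alternatives run. The sign of retinin for 29°C minus 25°C, which was 0.00, turned to -0.052 with TMM scaling, -0.19 with library size scaling, -0.045 with edgeR, -0.049 with DESeq2, -0.0019 without the ZT19 columns and -0.064 without 29°C ZT19 and 25°C ZT7, and ran from -0.080 to 0.063 with single columns left out. None of these passed. With single columns left out, CG13059 for 18°C minus 25°C ran from -0.61 to 0.38 and CG13062 for 29°C minus 25°C from -0.63 to 0.066, also without a call. The cause of these changes was not tested. Low reads limit CG13060, CG13046, CG13062, CG13059 and CG13038, and the leading members CG13063, CG13065 and CG13056 at 29°C.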
